A study of Mus musculus with 6 samples.

Results

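The genes described here are 10 genes of protein folding and stress signalling in the endoplasmic reticulum (ER), taken by symbol from a table of 55401 gene rows: Hspa5, Hsp90b1, Pdia4, Calr, Creld2, Sdf2l1, Herpud1, Xbp1, Ern1 and Atf6. Each symbol matched 1 row, and all 10 passed the filter on low counts that left 17573 genes to test. The cells were 129/Ola embryonic stem cells of the mouse, and the sample titles name an auxin-inducible degron (AID) on ZFP207, a zinc finger protein whose part in the work of U1 snRNP the series addresses. Depleted cells had indole-3-acetic acid (IAA), the auxin that sends a degron-tagged protein to the proteasome, for 5 h (3 libraries), and control cells were taken at 0 h (3 libraries). The genotype label names ZFP207 degradation in the depleted samples and reads WT in the controls. From their titles the controls were taken to be the same degron line, and if they were untagged cells each comparison would also be one between lines. No degron-free cells with IAA were analysed here, so an effect of IAA itself and one of losing ZFP207 cannot be told apart. RNA was labelled with 4-thiouridine (4sU), a uridine analogue that enters RNA as it is made, and the labelled RNA was pulled down before sequencing, so newly made transcripts weigh most in the counts.

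Secreted and membrane proteins fold in the ER with the help of chaperones such as BiP, the product of Hspa5, and of enzymes that form disulfide bonds. When unfolded proteins build up there, 3 sensors in the ER membrane signal to the nucleus in what is called the unfolded protein response: IRE1 (Ern1), ATF6 (Atf6) and PERK (Eif2ak3). IRE1 splices the Xbp1 mRNA so that an active transcription factor is made, ATF6 is cut in the Golgi to release one, and both switch on chaperone and degradation genes. Counts per gene show neither the splicing of Xbp1 nor the cutting of ATF6.

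The depleted libraries held 14336811 to 23385133 counts and the control libraries 17613103 to 25916628. Mitochondrially encoded transcripts took 3.25 to 5.93% of the counts in depleted libraries and 3.14 to 4.47% in controls. Levels are given in CPM, counts brought to a common library total with TMM scaling. Embryonic stem cell markers summed to 4420 to 5000 CPM in depleted libraries and 4080 to 4660 CPM in controls, with all 10 of the list tested. The paired edgeR fit called 2 of these 10 higher, Utf1 (1.32-fold, adjusted p = 0.0126) and Klf4 (1.19-fold, adjusted p = 0.0468). It called 1 lower, Tdh (146 CPM in depleted and 226 CPM in control libraries, adjusted p = 0.00057). Among genes with a mean of 50 CPM or more, as all 10 have, it called 13.1% higher and 8.45% lower, so these counts are close to the background. The 10 fibroblast markers summed to 10.9 to 16.9 CPM in depleted libraries and 15.8 to 22.5 CPM in controls, and Col3a1, Postn, Dcn and Lum were at 0 throughout. The 10 endoderm markers summed to 9.35 to 12.1 CPM in depleted libraries and 8.08 to 18.8 CPM in controls, with Afp and Ttr at 0. Of the 7 endoderm markers tested, 0 were called higher and 1 lower in the paired edgeR fit, beside 4.96% and 7.90% of all genes. The 1 was Hnf4a, with 1.43, 0.228 and 0.745 CPM in depleted replicates 1 to 3 and 6.24, 3.47 and 9.48 CPM in the controls (adjusted p = 0.000937). Of the 7, 5 had a paired log2 fold change above 0, and the median was 0.57. These 5 were at low levels, as with Gata6 at 0.825 CPM in depleted and 0.254 CPM in control libraries (SE 1.96). The list sum, Hnf4a included, was 12.1, 9.35 and 11.4 CPM in depleted replicates 1 to 3 and 14.8, 8.08 and 18.8 CPM in the controls. Whether the list as a whole changed was not tested. The part of these markers in the results below was not tested. Zfp207 RNA was 695, 1470 and 596 CPM in depleted replicates 1 to 3 and 545, 1120 and 548 CPM in the controls. The paired edgeR fit called it higher (log2 change 0.29, adjusted p = 0.0196), and the edgeR fit without pairs did not (adjusted p = 0.823). Its RNA does not check the depletion, since a degron acts on the protein. In bulk RNA, fewer cells of a type and less RNA per cell cannot be told apart.

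After 5 h of IAA, 5 of the 10 genes rose and 0 fell when libraries of the same replicate number were compared as pairs. Pdia4 rose 1.39-fold, Atf6 1.36-fold, Calr 1.23-fold, Hspa5 1.19-fold and Hsp90b1 1.18-fold (edgeR with a block for the replicate number, adjusted p under 0.05, here called the paired fit). The paired fit called 4.96% of all genes tested higher and 7.90% lower (871 and 1388 genes; 579 and 1746 with scaling by total count). The labels do not say what a replicate number stands for, and the pairing was taken from the data. Pdia4 and Atf6 kept their calls whichever pair was left out, and the other 3 did not. Among genes with a mean of 50 CPM or more it called 13.1% higher and 8.45% lower, and 5 of the 6 members at that level were among those called. The edgeR fit without the block, called the unpaired fit, was planned as the main test, with the paired fit as an alternative. The unpaired fit called 0 of the 10, with 2 (Calr and Atf6) at an unadjusted p under 0.05. It called 0.0114% of all genes higher and 0.780% lower, with 10.9% at an unadjusted p under 0.05. DESeq2 without the block called 1, Atf6 (DESeq2 adjusted p = 0.0313). The median paired log2 fold change was 0.28 for the 10 genes and 0.018 for all genes tested, and all 10 values lay above 0. The 10 genes were chosen with earlier results of these data known. Their contrasts with all genes, here and below, are therefore not independent evidence.

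Within the pairs, 6 of the 10 genes were higher in the depleted library of all 3 pairs and 0 were lower in all 3, against 24.2% and 24.1% of all genes. The number of members higher in the depleted library was 8, 10 and 8 in pairs 1 to 3, where 48.8%, 53.6% and 48.5% of all genes were. The levels of Calr and Atf6 did not overlap between the groups, both with the depleted group higher. Of all genes, 6.94% were separated in that direction and 11.8% in the opposite one. Summed over the 10 genes, the level was 1728, 2100 and 1689 CPM in depleted replicates 1 to 3 and 1447, 1708 and 1396 CPM in the controls. The lowest depleted sum lay below the sum of control replicate 2, so the sums overlapped between the groups although each depleted library stood above its own pair.

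**Figure D1:**
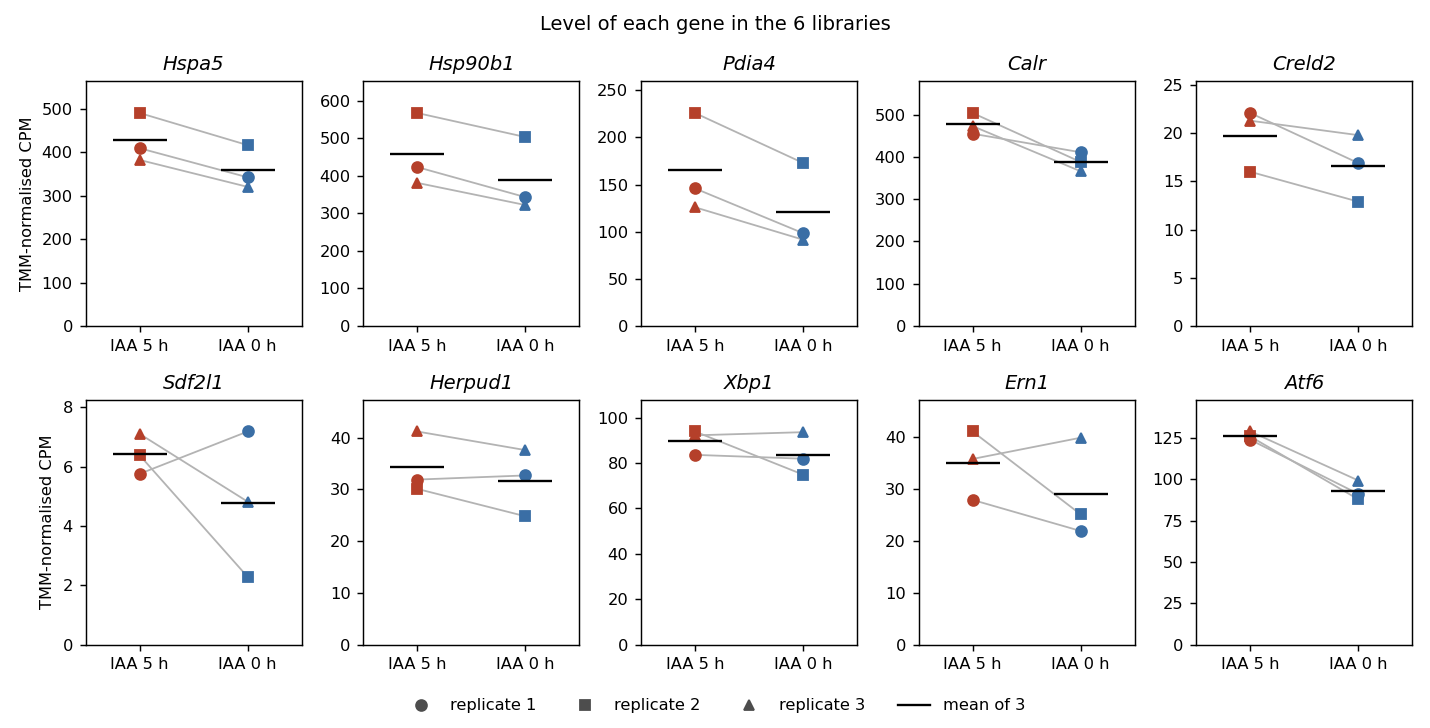
TMM-normalised CPM of each of the 10 genes in the 3 depleted libraries (IAA 5 h, left) and the 3 control libraries (IAA 0 h, right), each panel with its own axis from 0; grey lines join libraries of the same replicate number and black bars are means of 3. The depleted point is above its pair in 3 of 3 pairs for Hspa5, Hsp90b1, Pdia4, Calr, Creld2 and Atf6.

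Many promoters of ER chaperone genes carry the ER stress response element (ERSE), in which the factor NF-Y binds the CCAAT part and ATF6 the CCACG part. RefSeq start-site windows of GRCm38.p6 (250 bases before to 50 after the start) were found for 9 of the 10 genes, all but Atf6. Both strands were searched for the ERSE, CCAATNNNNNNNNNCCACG, and for its compact form ERSE-II, which is ATTGG and CCACG with 1 base of any kind (N) between them; the forms share the CCACG end. The ERSE was found in the windows of 4 members, Hspa5, Hsp90b1, Calr and Creld2, and in 0.119% of all 32851 windows. ERSE-II was found in the window of 1 member, Herpud1, and in 0.0365% of all windows. The shorter element TGACGTG, the core of the element that XBP1 binds, was found in the window of Hspa5 and in 2.01% of all windows. The windows with an ERSE or ERSE-II are shown because they hold the element through which such genes are known to answer ER stress, each on the gene's strand, with the elements in capitals.
Hspa5 (chr2:34771840-34772139, + strand): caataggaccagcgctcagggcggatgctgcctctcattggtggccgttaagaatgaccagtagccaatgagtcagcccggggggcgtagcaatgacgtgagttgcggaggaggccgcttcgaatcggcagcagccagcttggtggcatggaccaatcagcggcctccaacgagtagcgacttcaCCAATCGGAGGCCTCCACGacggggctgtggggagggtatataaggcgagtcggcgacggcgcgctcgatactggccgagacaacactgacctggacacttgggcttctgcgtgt
Hsp90b1 (chr10:86705395-86705694, - strand): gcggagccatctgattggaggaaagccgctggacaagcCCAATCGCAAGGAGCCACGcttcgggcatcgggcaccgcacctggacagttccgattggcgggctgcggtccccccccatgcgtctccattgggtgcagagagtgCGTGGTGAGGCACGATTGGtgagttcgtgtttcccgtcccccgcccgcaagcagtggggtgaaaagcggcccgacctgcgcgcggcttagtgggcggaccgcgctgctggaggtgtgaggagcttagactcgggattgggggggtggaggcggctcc
Calr (chr8:84846882-84847181, - strand): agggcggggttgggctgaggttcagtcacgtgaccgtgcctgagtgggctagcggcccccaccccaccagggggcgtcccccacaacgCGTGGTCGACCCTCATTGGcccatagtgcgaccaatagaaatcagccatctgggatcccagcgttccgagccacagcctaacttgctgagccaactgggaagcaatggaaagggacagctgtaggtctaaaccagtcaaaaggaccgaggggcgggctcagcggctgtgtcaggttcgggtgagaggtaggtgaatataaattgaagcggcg
Creld2 (chr15:88819396-88819695, + strand): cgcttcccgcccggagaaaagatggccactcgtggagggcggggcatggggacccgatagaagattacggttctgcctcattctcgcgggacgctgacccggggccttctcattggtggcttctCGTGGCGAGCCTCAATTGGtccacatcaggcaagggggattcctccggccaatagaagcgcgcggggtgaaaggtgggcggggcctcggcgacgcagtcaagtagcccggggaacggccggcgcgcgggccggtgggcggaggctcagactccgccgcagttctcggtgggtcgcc
Herpud1 (chr8:94386179-94386478, + strand): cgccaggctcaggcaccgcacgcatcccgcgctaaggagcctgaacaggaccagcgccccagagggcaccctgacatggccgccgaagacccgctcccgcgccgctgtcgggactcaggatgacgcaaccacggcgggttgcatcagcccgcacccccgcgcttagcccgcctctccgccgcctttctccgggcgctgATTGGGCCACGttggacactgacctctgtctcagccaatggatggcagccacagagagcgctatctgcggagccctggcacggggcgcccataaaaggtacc

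The element of Hspa5 lay 65 to 47 bases before the start and reads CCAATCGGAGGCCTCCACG. Hsp90b1 had a pair of them, one from -212 to -194 and one on the opposite strand from -107 to -89. The elements of Calr (-162 to -144) and Creld2 (-126 to -108) lay on the opposite strand, and the ERSE-II of Herpud1 lay from -52 to -42. Of these 5 genes, Hspa5, Hsp90b1 and Calr rose in the paired fit, while Creld2 and Herpud1 were not called. The paired log2 change was 0.26 (SE 0.16) for Creld2, 0.12 (SE 0.13) for Herpud1 and 0.25 (SE 0.07) for Hspa5. Mean levels in depleted libraries were 19.8 CPM for Creld2, 34.4 CPM for Herpud1 and 427 CPM for Hspa5. The missing call of Creld2 therefore does not show a smaller change than that of Hspa5. Pdia4, which rose, had neither element in its window, a statement on these letters and this window only.

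The lumenal chaperone and folding enzyme genes Hspa5, Hsp90b1, Pdia4 and Calr rose in the paired fit. Hspa5 (chromosome 2, 34772090 to 34776529, GRCm38.p6, overlapped by Rabepk) encodes BiP, an HSP70 chaperone that also holds the sensors inactive. It had 409, 490 and 382 CPM in depleted replicates 1 to 3, against 342, 416 and 320 CPM in the controls. Replicate 2 was the highest library of each group, and the groups overlapped, but the pair differences were nearly equal at 0.26, 0.24 and 0.26 on the log2 scale. The mean was 427 ± 56.1 CPM in depleted and 359.5 ± 50.2 CPM in control libraries (SD, n = 3). The paired log2 change was 0.25 (SE 0.07, edgeR adjusted p = 0.0288), and the unpaired edgeR adjusted p was 0.636. Rabepk itself was not called (16.7 CPM in depleted and 17.9 CPM in control libraries, paired edgeR adjusted p = 0.645).

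Hsp90b1 (chromosome 10, 86690841 to 86705444) encodes GRP94, the HSP90 chaperone of the ER. Its level was 423, 567 and 381 CPM in depleted replicates 1 to 3, and 343, 503 and 322 CPM in the controls. Replicate 2 again stood highest in both groups, and control replicate 2 lay above 2 of the depleted libraries. The log2 change in the paired fit was 0.24 (SE 0.07, edgeR adjusted p = 0.0379) and the unpaired edgeR adjusted p was 0.770.

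Pdia4 (chromosome 6, 47796141 to 47813512, with Mir704 in its interval) encodes ERp72, a disulfide isomerase, and had the largest paired fold change among the 5 genes called. Its level was 146, 226 and 126 CPM in depleted replicates 1 to 3, against 98.5, 173 and 91.6 CPM in the controls. Each depleted library exceeded its pair, by 0.57, 0.38 and 0.46 on the log2 scale, while control replicate 2 exceeded depleted replicates 1 and 3. The paired fit gave a log2 change of 0.47 (SE 0.08, edgeR adjusted p = 0.00252) and the unpaired edgeR adjusted p was 0.634.

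Calr (chromosome 8, 84842088 to 84846931) encodes calreticulin, a calcium-binding lectin that folds glycoproteins. Its level was 455, 504 and 473 CPM in depleted replicates 1 to 3 and 411, 388 and 366 CPM in the controls, so that the lowest depleted library stood above the highest control. The mean was 477.5 ± 24.8 CPM in depleted and 389 ± 22.4 CPM in control libraries (SD, n = 3). The log2 change in the paired fit was 0.30 (SE 0.07, edgeR adjusted p = 0.0190), and the unpaired edgeR adjusted p was 0.438.

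Of these calls, only that of Pdia4 was kept in the paired fit when any single pair was left out (edgeR adjusted p from 0.00693 to 0.0290). Hspa5 (adjusted p from 0.0661 to 0.140) and Hsp90b1 (adjusted p from 0.0541 to 0.192) were called in none of those fits. Calr was called without pair 1 but not without pair 2 (adjusted p = 0.0845) or pair 3 (adjusted p = 0.125). In the unpaired fit, the log2 fold change of Hspa5 was 0.14 without depleted replicate 2, against 0.25 with all libraries. Without that library it was 0.047 for Hsp90b1 and 0.17 for Pdia4, and without control replicate 2 it was 0.46 and 0.81 for these genes.

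The folding factor genes Creld2 and Sdf2l1 were not called in either fit. Creld2 (chromosome 15, 88819646 to 88826681), a disulfide isomerase-like protein induced by ER stress, had 22.1, 16.0 and 21.3 CPM in depleted replicates 1 to 3 and 16.9, 12.9 and 19.8 CPM in the controls. It was higher in the depleted library of 3 of 3 pairs, with its lowest value in replicate 2 of each group, and the paired fit gave a log2 change of 0.26 (SE 0.16, edgeR adjusted p = 0.330). Sdf2l1 (chromosome 16, 17130138 to 17132383), a partner of BiP in the ER lumen, had 129, 140 and 105 counts in depleted replicates 1 to 3 and 189, 40 and 89 in the controls. The paired log2 change of 0.54 (SE 0.36, edgeR adjusted p = 0.358) came with pair differences of -0.32, 1.45 and 0.55, and it was 0.11 with pair 2 left out. The largest of these differences rested on the 40 counts of control replicate 2.

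Herpud1 (chromosome 8, 94386429 to 94395371) acts in ER-associated degradation, which returns misfolded proteins to the cytosol for the proteasome. It had 31.9, 30.1 and 41.2 CPM in depleted replicates 1 to 3 and 32.7, 24.8 and 37.6 CPM in the controls, with the groups overlapping almost wholly. The paired fit gave a log2 change of 0.12 (SE 0.13, edgeR adjusted p = 0.603). Without depleted replicate 3 or control replicate 2 the unpaired value was just below 0.

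**Figure D2:**
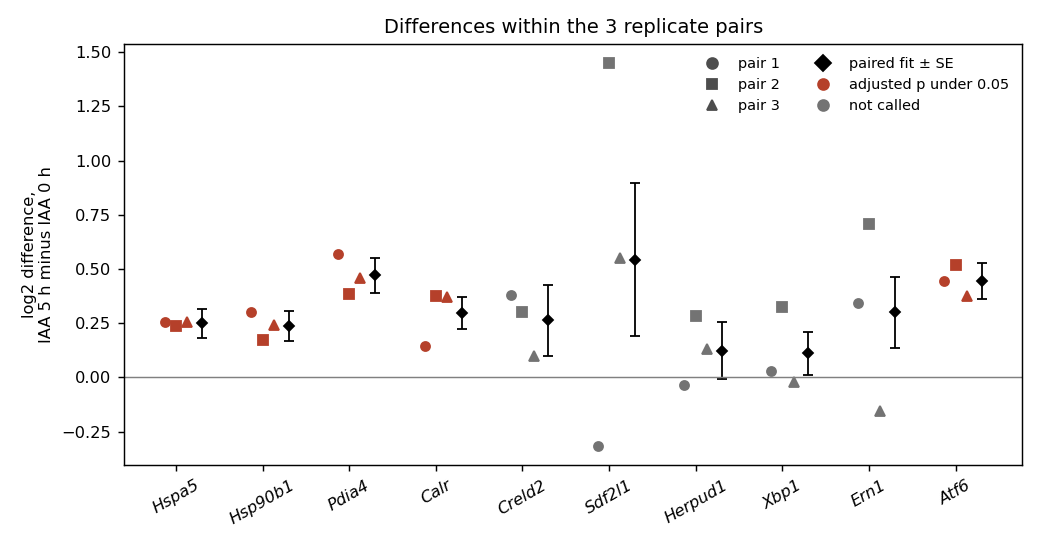
Log2 difference of depleted (IAA 5 h) minus control (IAA 0 h) within each of the 3 replicate pairs for the 10 genes, red where the paired fit called the gene; black diamonds with bars are the paired log2 fold change ± SE. The 3 differences of Hspa5 lie within 0.24 to 0.26, while those of Sdf2l1 run from -0.32 to 1.45.

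Among the sensors, Atf6 rose while Ern1 and the transcription factor gene Xbp1 were not called. Atf6 (chromosome 1, 170704457 to 170868585) had 124, 126 and 129 CPM in depleted replicates 1 to 3 and 91.2, 87.9 and 99.3 CPM in the controls. All depleted libraries stood above all controls, and the spread within a group was small, at 126 ± 2.26 CPM in depleted and 92.8 ± 5.84 CPM in control libraries (SD, n = 3). The log2 change in the paired fit was 0.45 (SE 0.08, edgeR adjusted p = 0.00444), called also without any single pair (adjusted p from 0.0221 to 0.0281), and the unpaired edgeR adjusted p was 0.219. Its interval overlaps 4 other genes, the snRNA genes Gm23523 and Gm25235, the protein-coding Gm29733 and the lncRNA gene Gm9929, and with strand not stated reads of any of them cannot be told apart from those of Atf6. Only Gm9929 was tested, with 0.0893 CPM in depleted and 1.33 CPM in control libraries (paired edgeR adjusted p = 0.0629).

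Ern1 (chromosome 11, 106397620 to 106487796) encodes the kinase and ribonuclease IRE1. It had 27.9, 41.1 and 35.8 CPM in depleted replicates 1 to 3 and 21.9, 25.1 and 39.9 CPM in the controls, higher in pairs 1 and 2 and lower in pair 3. The paired fit gave a log2 change of 0.30 (SE 0.16, edgeR adjusted p = 0.260). Xbp1 (chromosome 11, 5520641 to 5525993), the target of IRE1, had 83.6, 93.9 and 92.2 CPM in depleted replicates 1 to 3 and 81.9, 74.9 and 93.6 CPM in the controls. Of its pair differences only that of pair 2, at 0.33 on the log2 scale, departed from 0 by more than 0.03, and the paired fit gave a log2 change of 0.11 (SE 0.10, edgeR adjusted p = 0.515).

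The members differ in genomic length, a property along which the whole table was ordered, with longer genes lower after IAA. Across the 5040 genes under 10 kb the paired log2 fold change had a median of 0.14. It was -0.13 across the 1738 genes that reach 100 kb. Of the members, 6 are shorter than 10 kb, from Sdf2l1 at 2.25 kb to Herpud1 at 8.94 kb, and Hsp90b1 and Pdia4 span 14.6 and 17.4 kb. Ern1 spans 90.2 kb, and its class of 30 to 100 kb had a median of -0.07. Atf6 spans 164 kb, in the class where 1.32% of genes were called higher and 12.6% lower. Its paired log2 fold change of 0.45 exceeded the class's ninetieth percentile of 0.27. That class holds genes of every expression level. Among genes of any length with a mean of 50 CPM or more, as Atf6 has, 13.1% were called higher. Length and level were not considered together.

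**Figure D3:**
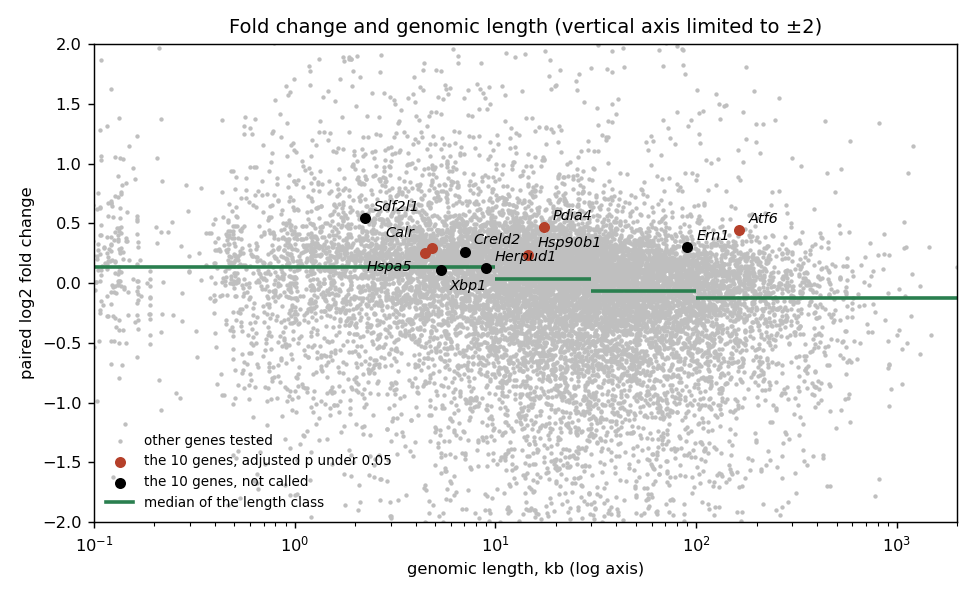
Paired log2 fold change (depleted over control) against genomic length in kb on a log axis; grey points are other genes tested, coloured points the 10 genes (red, called in the paired fit) and green lines the medians of 4 length classes. Atf6, at 164 kb, sits above 0 where the class median is -0.13.

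The 10 genes did not vary together across libraries. Relative to replicates 1 and 3 of the same group, replicate 2 was higher for Hspa5, Hsp90b1 and Pdia4, by 0.31, 0.50 and 0.73 in the depleted and by 0.33, 0.60 and 0.87 in the control libraries on the log2 scale. For Creld2 and Herpud1 it was lower, by differences of -0.44 and -0.27 in the depleted and -0.50 and -0.50 in the control libraries. Calr and Atf6 differed by less than 0.12 either way in both groups. Of all genes tested, 34.3% were higher and 37.4% lower in replicate 2 of both groups, and replicate 2 also held the highest Zfp207 level in each group. What sets replicate 2 apart was not tested.

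**Figure D4:**
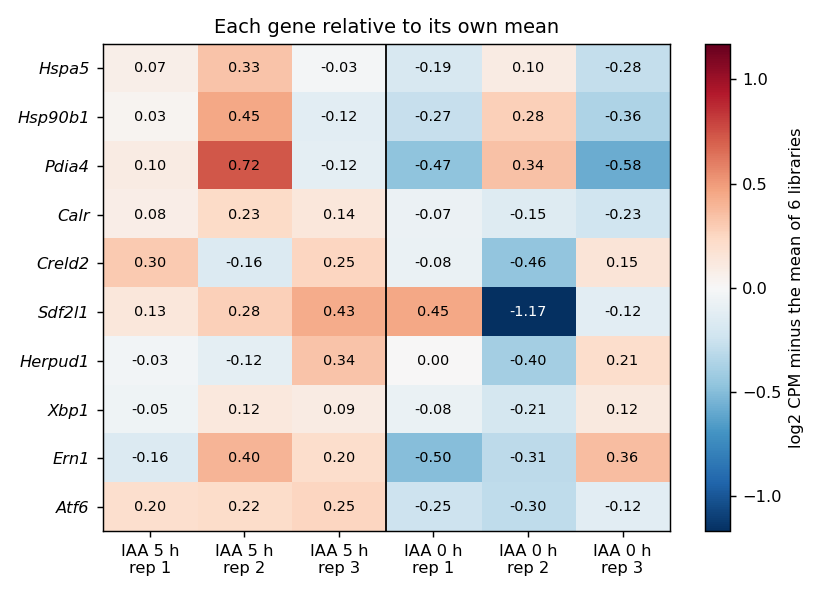
Log2 CPM of each gene minus its own mean over the 6 libraries, depleted (IAA 5 h) left of the line and control (IAA 0 h) right of it, red above and blue below the mean. Hspa5, Hsp90b1 and Pdia4 are highest in replicate 2 of each group, Creld2 is lowest there, and Atf6 is above its mean in all 3 depleted libraries.

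By Pearson's correlation of log2 CPM over the 6 libraries, the genes most like Hspa5 among 4796 other genes of at least 50 CPM were 4932438A13Rik (0.998), Zfp930 (0.997), Clk4 (0.995), Supt20 (0.993) and Fbxl14 (0.992). The points share the replicate pattern above, and 80 genes had a value over 0.95. Clk4, which encodes a kinase of SR splicing factors, had 149, 215 and 133 CPM in depleted replicates 1 to 3 and 112, 156 and 104 CPM in the controls. Among members, Pdia4 (0.988) and Hsp90b1 (0.965) were closest to Hspa5, while Herpud1 had a value of -0.52.

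Of the other genes of the pathway, a share close to that of all genes was called. In 5 lists with 103 genes tested, the paired fit called 8 higher and 6 lower, beside 4.96% and 7.90% of all genes. Among genes with a mean of 50 CPM or more, a level that not all of the 103 reach, it called 13.1% and 8.45%. The median paired change of the 103 genes was 0.12 (log2), where all genes had 0.018. The unpaired edgeR fit called 0 of them, with 8 at an unadjusted p under 0.05, and DESeq2 without the block called 0 higher and 1 lower. Of 26 other ER chaperones and folding enzymes, 4 rose and 3 fell, with a median of 0.19. Those that rose were Hyou1, an HSP110-type partner of BiP (1.35-fold), Dnajb9, a BiP co-chaperone (1.39-fold), P4hb, the main disulfide isomerase (1.33-fold), and Serp1, which protects newly made membrane proteins (1.18-fold). Their paired edgeR adjusted p-values were 0.0466, 0.0248, 0.0118 and 0.0444.

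P4hb had 233, 256 and 253 CPM in depleted replicates 1 to 3 and 211, 165 and 183 CPM in the controls, so the groups did not overlap. Sil1, a nucleotide exchange factor of BiP, fell to 1.87 ± 0.117 CPM in depleted libraries, against 5.28 ± 0.850 CPM in controls (SD, n = 3). Its log2 change in the paired fit was -1.48 (edgeR adjusted p = 0.0173). Sumf1, which activates sulfatases in the ER, and Cnpy2 had paired log2 fold changes of -0.62 and -0.55 (edgeR adjusted p = 0.0135 and 0.0387). Other genes of BiP partners were not called, among them Dnajb11 and Dnajc3 (paired edgeR adjusted p = 0.294 and 0.692), which were chosen after their values were seen. Sil1 spans 233 kb and Sumf1 78.6 kb, while Hyou1 spans 12.9 kb, Dnajb9 4.17 kb and Cnpy2 5.03 kb.

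In ER-associated degradation, 1 of 19 genes rose and 1 fell, beside 4.96% and 7.90% of all genes, with a median of 0.045. The products of the genes called work together in the same ubiquitin ligase complex. Syvn1, the ligase HRD1, had 85.6, 80.9 and 95.1 CPM in depleted replicates 1 to 3 and 69.2, 57.3 and 79.7 CPM in the controls (paired edgeR adjusted p = 0.0276). Sel1l, its adaptor, had 52.9, 59.5 and 42.9 CPM in depleted replicates 1 to 3 and 61.2, 74.4 and 71.9 CPM in the controls (paired edgeR adjusted p = 0.0329). Syvn1 spans 7.14 kb and Sel1l 43.1 kb, and the part of length in these results was not tested.

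Of 22 genes of the PERK and ATF4 branch, 2 rose and 0 fell, with a median of 0.22. The paired fit called 4.96% of all genes higher and 7.90% lower, and 13.1% and 8.45% of genes with a mean of 50 CPM or more. The 2 that rose were Sesn2 (1.29-fold, paired edgeR adjusted p = 0.0108) and Ddit4 (1.39-fold, paired edgeR adjusted p = 0.0208), both of which restrain mTORC1. The sensor gene Eif2ak3 averaged 40.3 ± 4.42 CPM in depleted and 39.9 ± 4.95 CPM in control libraries, with a paired log2 fold change of 0.013 (SE 0.14). Atf4 averaged 281 ± 47.9 CPM in depleted and 259.8 ± 52.5 CPM in control libraries (paired edgeR adjusted p = 0.377). Ddit3, which encodes the transcription factor CHOP, had 9.20, 8.81 and 10.3 CPM in depleted replicates 1 to 3 and 5.82, 5.75 and 8.67 CPM in the controls (paired edgeR adjusted p = 0.187).

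Among 14 tested genes for other sensors, proteases and transcription factors, 1 rose and 1 fell, beside 4.96% and 7.90% of all genes. Nfya, a subunit of the NF-Y factor that binds the CCAAT part of the ERSE, had 119, 122 and 137 CPM in depleted replicates 1 to 3 and 89.4, 75.2 and 108 CPM in the controls (0.49 on the log2 scale in the paired fit, SE 0.09, edgeR adjusted p = 0.00494). The NF-Y subunit genes Nfyb and Nfyc were not called, at -0.063 and 0.17 on that scale (paired edgeR adjusted p = 0.765 and 0.277). Both were chosen after their values were seen. Mbtps2, one of the Golgi proteases that cut ATF6, had 78.5, 62.5 and 38.9 CPM in depleted replicates 1 to 3 and 85.2, 91.5 and 69.7 CPM in the controls (-0.49 on the log2 scale in the paired fit, SE 0.12, edgeR adjusted p = 0.0211). Mbtps1, the other such protease, and Atf6b, the paralogue of Atf6, were not called (paired edgeR adjusted p = 0.316 and 0.412). Of 22 genes for protein translocation and signal peptide processing, 0 rose and 1 fell, beside the same shares of all genes. The 1 was Srp54a, a subunit of the signal recognition particle (paired edgeR adjusted p = 0.0234). Its reads may be shared with its near-identical copies Srp54b and Srp54c.

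Of 11 cytosolic and mitochondrial counterparts of the members, 2 were called higher and 1 lower, beside 13.1% and 8.45% of genes with a mean of 50 CPM or more, so these counts are close to the background. Those that rose were the cytosolic Hspa8 (1.20-fold, paired edgeR adjusted p = 0.0137) and Hsp90ab1 (1.19-fold, paired edgeR adjusted p = 0.0185), beside 1.19-fold for Hspa5 and 1.18-fold for Hsp90b1. The mitochondrial HSP90 gene Trap1 fell, with 75.8, 57.7 and 78.1 CPM in depleted replicates 1 to 3 and 94.8, 90.0 and 96.1 CPM in the controls (paired edgeR adjusted p = 0.0152). The difference between ER and cytosolic genes was not tested.

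**Figure D5:**
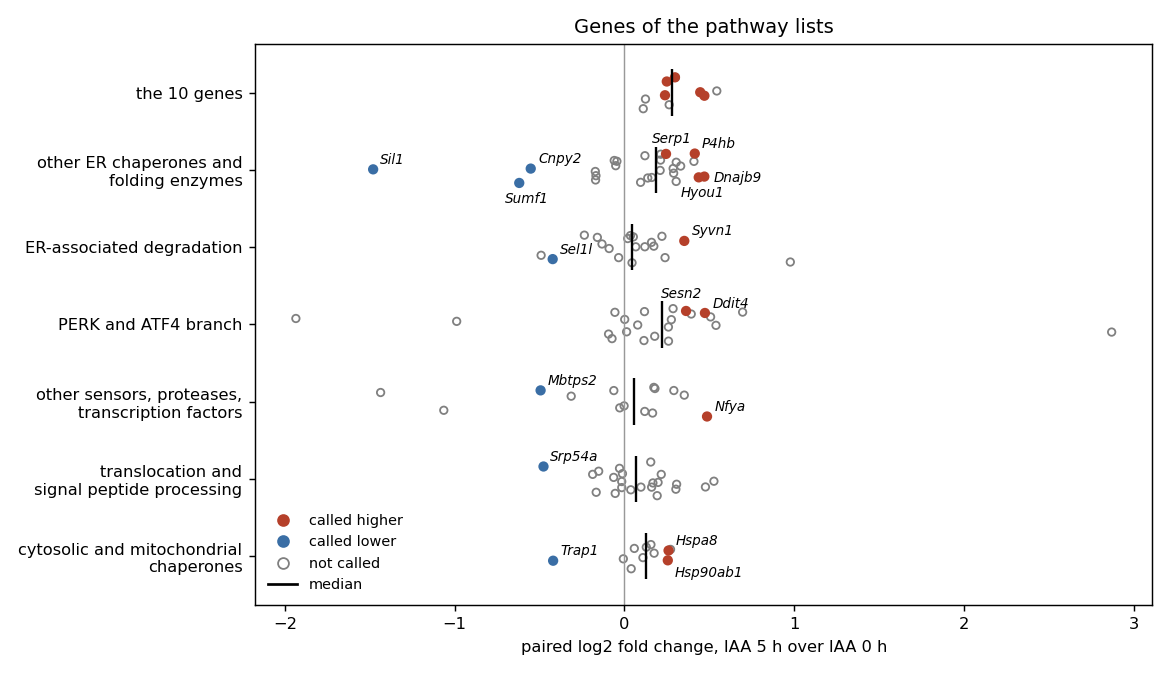
Paired log2 fold change (depleted over control) of each tested gene in 7 lists, with the 10 genes at the top; filled points were called in the paired fit (red higher, blue lower), open points were not, and black bars are medians. The 10 genes all lie above 0, while the other ER chaperones include 3 genes called lower.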

How the data were processed

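The submitters' processing notes name the build mm10 and the tools StringTie 2.2.1, HISAT2 2.2.1 and DESeq2 1.42.0, without roles. The deposited table holds whole numbers, treated here as estimated counts of reads per gene, because its row names have the form of StringTie's export. The sources used here do not state strand, pulse length or spike-ins, so changes are relative to other genes. Columns were matched to samples by title.

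Genes were kept with filterByExpr, scaled by TMM and tested with edgeR 4.0.16 in R 4.3.3 (quasi-likelihood, robust, Benjamini-Hochberg over all 17573 genes, adjusted p under 0.05). Fold changes are depleted over control; the SE is that implied by the F statistic. Log2 CPM used a prior count of 2. Both fits were run on simulated counts with a replicate effect built in and fold changes larger than those of the members called. Those runs therefore check neither the pairing nor changes of the members' size. The unpaired fit was planned as the main test, and the paired fit as an alternative to it. DESeq2 1.42.0, other scalings, no filter and left-out libraries were further alternatives.

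The labels give replicate numbers without saying what they mean. Deviations from the group means correlated at 0.268, 0.387 and 0.321 for equal numbers and from -0.265 to -0.025 for unequal ones, so the numbers were taken as pairs. Deviations cancel out within a group, so positive values for equal numbers force negative ones on balance for unequal numbers. The negative values are therefore not separate support for the pairing. No source says that replicates were separate cultures, and p-values may cover technical spread only.

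The members and lists were chosen with earlier results of these data known. Of the other lists, markers included, genes called in either fit are named (up to 4 a direction by fold change), and Atf4, Ddit3, Eif2ak3, Atf6b, Mbtps1 and Mbtps2 always. Loci and windows are from RefSeq, GRCm38.p6.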

Additional observations from a re-analysis of the deposited data

How the results depend on the processing

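Without the replicate block, the number of the 10 genes called higher stayed at 0 under RLE, upper-quartile and total count scaling, without the filter and without any single library or both libraries of replicate 2, and it was 1 in DESeq2. With the replicate block it was 5, also in DESeq2 and with RLE or upper-quartile scaling, 3 with total count scaling, 2 without the filter and 2 to 3 with a pair left out; total count scaling lost Hspa5 (adjusted p = 0.0591) and Hsp90b1 (0.0812), and the missing filter, which raised the genes tested to 28309, also Calr (0.0846). None of the 10 was called lower under any of these settings. For the other pathway genes, 8 were called higher and 6 lower with the replicate block, 12 and 5 in DESeq2 with the block, 10 and 6 with RLE, 9 and 6 with upper-quartile, 5 and 6 with total count scaling, 1 and 2 without the filter, and 1 to 6 and 0 to 2 with a pair left out. DESeq2 without the block called 1 of them lower. Over all genes, the unpaired edgeR fit called 2 higher and 137 lower, against 62 and 579 in DESeq2, and at most 1 in either direction with any library left out. Of the 10 genes, only Herpud1 changed sign, at -0.035 without depleted replicate 3 and -0.033 without control replicate 2, in a range up to 0.254 with a library left out. The paired fits with other scalings or no filter, and the fit without replicate 2, were chosen after seeing the data. The 3 libraries a group limit the unpaired fit, and Sdf2l1 rests on 40 to 189 counts a library.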

Other observations

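Beyond the 10 genes, 5 tested genes with an ERSE or ERSE-II near their start were called. Of 49 gene symbols with such a window, 30 were tested, of which 25 are not members. Among those 25 the paired edgeR fit called 3 higher and 2 lower, beside 4.96% and 7.90% of all genes. Among genes with a mean of 50 CPM or more, a level that not all of the 25 reach, it called 13.1% and 8.45%. The median change of the 25 was 0.062 on the log2 scale (0.018 for all genes), and the unpaired fit called 0 of them. The 3 called higher were the ligase gene Syvn1, the splicing factor gene Rbm39 and Pan2, a subunit of a poly(A) nuclease. Rbm39 was at 759 CPM in depleted and 617 CPM in control libraries (paired edgeR adjusted p = 0.0195). Pan2 was at 107 CPM in depleted and 86.9 CPM in control libraries (paired edgeR adjusted p = 0.0406). Lrif1 was lower, at 29.1 CPM in depleted and 49.8 CPM in control libraries (paired edgeR adjusted p = 0.00124), as was Gm46430. This set of genes was chosen after the members' windows had been read.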
